A study of Mus musculus with 3 samples.

Results

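The cells described here are those of mouse hearts in which over 25% of the UMIs came from the 13 genes of the mitochondrial genome, whose symbols start with mt-. A UMI, or unique molecular identifier, stands for 1 captured transcript. The cells were chosen by that share alone, in the libraries titled Isotype Control and PD1/PEM, and numbered 11315 of the 15898 deposited cells of these libraries and of 27497 cells in the series. The isotype library held 6908 of them among 9510 cells (72.6%, exact 95% binomial interval 71.7 to 73.5) and the PD1/PEM library 4407 among 6388 (69.0%, 67.8 to 70.1). The remaining cells, 2602 and 1981, had shares up to 25% and serve as the comparison within each library. The third library, titled PDL1/ATZ, had 9 such cells and was not used.

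The mice were NOD/SCID, a strain without functional T and B lymphocytes, and the strain is the same in both groups. They received an immune checkpoint antibody or an isotype control antibody on days 0 and 7, and hearts were taken on day 14. The study asked for responses of the heart to checkpoint antibodies that do not depend on lymphocytes. Each group was 1 pool of 3 hearts, digested with enzymes and captured as 1 library, and no age or sex of the mice is stated in the labels. The labels disagree on the antibody of the treated library: its title names PD-1 and PEM, while its treatment tag is atezolizumab, an antibody to PD-L1. It is called by its title, and no difference below is assigned to either antibody. With 1 library a side no test could be made. All results are sizes, and every interval covers counting error only, neither differences between hearts nor between captures.

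Transcripts of the mitochondrial genome are made inside the organelle, and heart muscle, which lives on oxidative metabolism, has many mitochondria. A high share of them in a droplet is commonly read as a sign of a cell that has lost cytoplasm, and such cells are usually filtered out before analysis. Heart muscle also has a hormone system of its own: stretched atrial muscle secretes natriuretic peptides, and the genes for these peptides are standard readouts of wall stress.

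Cells over 25% were the larger part of both libraries, and the distribution of shares was cut off from above. No deposited cell reached 30%, and the number of cells per percentage point increased up to that limit. The median share of the selected cells was 28.1% on the isotype side and 28.02% for PD1/PEM. The selected cells held 8330097 and 7227660 UMIs without the mt- genes. Their median depth differed, at 1483.5 against 2064 UMIs and 833 against 1101 genes per cell. The libraries shared 23 cell barcodes, and 13 isotype and 11 PD1/PEM cells over 25% carried one of them.

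**Figure D1:**
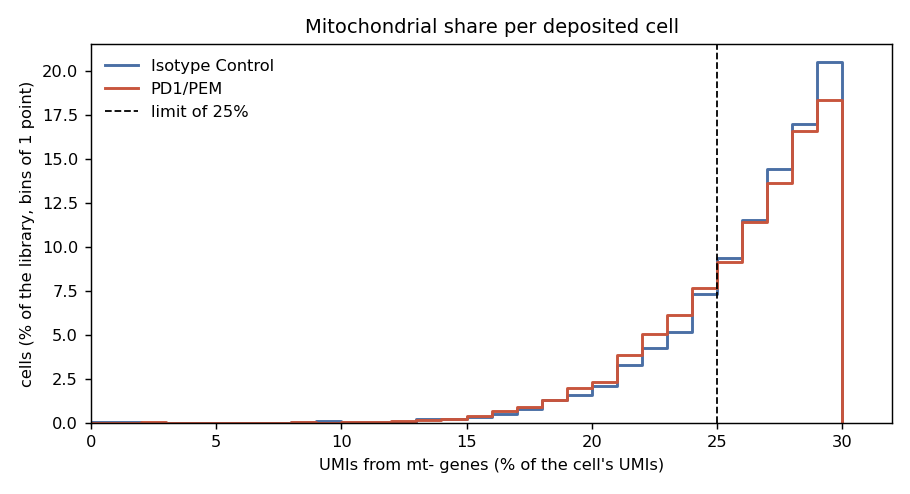
Share of UMIs from the 13 mt- genes per deposited cell, in percent (horizontal axis), against the percent of each library's cells in bins of 1 percentage point (vertical axis), for the isotype (blue) and PD1/PEM (red) libraries, with the limit of 25% dashed. Both curves climb to the last bin below 30%, and no cell lies at or above 30%.

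Markers of several cell types were read in the same barcodes. At least 1 UMI each of cardiomyocyte, fibroblast, vascular endothelial and haemoglobin genes was present in 6581 isotype cells (95.3%) and 4358 PD1/PEM cells (98.9%). Of the cells with at least 2000 UMIs outside the mt- genes, all 669 isotype and all 1394 PD1/PEM cells held the 4 sets together. No selected cell lacked a UMI of the 10 cardiomyocyte markers. The spread of the endothelial share between cells was close to counting noise: its variance was 1.18 and 1.44 times that of random draws from the library's own sum. For the cardiomyocyte share the same ratio was 3.05 and 6.26. The selected barcodes therefore could not be given single cell types from these markers, and values below are UMIs summed per library. In such sums, fewer cells of a type and less RNA per cell cannot be told apart. The part of free RNA in these profiles was not tested.

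The 14 marker lists gave the makeup of the sums in CPM, UMIs scaled to a library total of 1e+06 without the mt- genes. The 10 cardiomyocyte markers summed to 42185 CPM in the isotype and 29403 CPM in the PD1/PEM library, 1.43-fold lower (1.43 to 1.44). They were 4.14% of the UMIs of the median isotype cell (quartiles 3.52 to 4.78) and 2.75% of the median PD1/PEM cell (2.22 to 3.36). These quartiles describe barcodes of 1 pool a side, which are no replicates of the condition. Fibroblast markers summed to 5360 and 6181 CPM, and vascular endothelial markers to 4599 and 5266 CPM, each 1.15-fold higher in PD1/PEM. Macrophage markers were at 502 and 652 CPM (1.30-fold higher), mesothelial markers at 199.8 and 328 CPM (1.64-fold) and the erythroid list, mainly haemoglobin, at 5728 and 10469 CPM (1.83-fold). Smooth muscle markers stood at 1513 and 1204 CPM, 1.26-fold lower in PD1/PEM, with 6 of 8 lower and 2 higher. The most abundant of them, Des, had 473 and 321 CPM and is also on a sarcomere list below. Endocardial markers stood at 1331 and 1307 CPM. Lymphocyte markers were nearly absent, with 11.6 and 19.1 CPM, 1 of 10 genes measured and Klrb1c at 0 in both libraries. Neutrophil markers had 14.5 and 27.9 CPM, and Ly6g, the gene that defines these cells in mice, was at 0 in the isotype library. The PD1/PEM library thus held a smaller share of muscle transcripts and a larger share of erythroid, fibroblast, mesothelial, endothelial and macrophage marker transcripts. Markers of a type did not all go in the same direction. Of 7 measured mesothelial markers 6 were higher and 1 lower, Upk3b with 43.3 and 40.5 CPM. Wt1 alone had 93.8 and 191 CPM of the mesothelial sum. Of the 10 vascular endothelial markers 8 were higher and 2 lower, Pecam1 with 519 and 441 CPM and Cd36 with 1411 and 1339 CPM. The part of this makeup in the differences below was not tested.

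A gene counted as measured with at least 50 UMIs over both libraries, which left 13464 genes. Of these, 133 (0.988%) were at least 2-fold higher in the PD1/PEM library and 72 (0.535%) at least 2-fold lower. Under a minimum of 200 UMIs these numbers were 54 and 31. At 1.5-fold the shares were 5.84% higher and 4.8% lower, and the median log2 ratio of all measured genes was 0.01. Every count of list members past 1.5-fold below stands against these shares. A log2 ratio is that of PD1/PEM over isotype, with 0.5 UMIs added to each count.

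The lowest genes of the PD1/PEM library were hormones and growth factors of the atrial wall. Bmp10, a ligand of the BMP family made by atrial muscle, had 111 CPM for isotype and 10.7 CPM for PD1/PEM, 10.4-fold lower (8.27 to 13.4). Nppb, which encodes B-type natriuretic peptide, had 207 and 33.1 CPM, 6.27-fold lower (5.47 to 7.20). Nppa, the gene of atrial natriuretic peptide, had 4979 and 1533 CPM, 3.25-fold lower (3.18 to 3.32). Nppa was abundant enough to be read barcode by barcode. It made up 0.484% of the UMIs of the median isotype cell (quartiles 0.336 to 0.650) and 0.140% of the median PD1/PEM cell (0.0789 to 0.217). The difference was thus spread over the barcodes of these pools and not only in a few of them, but such barcodes are no replicates. No Nppa UMI was found in 1.85% of isotype and 13.9% of PD1/PEM cells, although the PD1/PEM cells were deeper. Whether this Nppa came from the cells themselves or from free RNA was not tested.

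Nppb (chromosome 4, 147985788 to 147987205) and Nppa (chromosome 4, 148000722 to 148002079) lie next to each other on the mouse genome build GRCm38, and Bmp10 is on chromosome 6 (87428994 to 87437677). The 250 bases before the start of each gene, from RefSeq on GRCm38.p6, are shown because these 3 genes head the list of lowest genes and all encode secreted signals of the heart. The capitals mark TGATAA or AGATAA, letters bound by GATA factors, on either strand. That motif was chosen after the values were seen, and 18.6% of the 32851 promoter windows of 300 bases hold it. RefSeq places the start of Nppb inside the span that GENCODE gives. The windows are Nppa at chr4:148000472-148000721, Nppb at chr4:147985650-147985899 and Bmp10 at chr6:87428744-87428993, all on the plus strand.
Nppa: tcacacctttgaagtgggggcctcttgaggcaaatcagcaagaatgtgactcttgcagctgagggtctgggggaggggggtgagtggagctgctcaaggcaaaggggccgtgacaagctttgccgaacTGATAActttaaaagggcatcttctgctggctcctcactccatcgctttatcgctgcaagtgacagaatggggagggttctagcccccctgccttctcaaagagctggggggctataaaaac
Nppb: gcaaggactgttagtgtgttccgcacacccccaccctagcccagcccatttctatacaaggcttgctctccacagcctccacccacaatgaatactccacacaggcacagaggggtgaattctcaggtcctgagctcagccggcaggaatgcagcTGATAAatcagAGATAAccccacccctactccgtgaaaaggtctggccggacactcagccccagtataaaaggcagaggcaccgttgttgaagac
Bmp10: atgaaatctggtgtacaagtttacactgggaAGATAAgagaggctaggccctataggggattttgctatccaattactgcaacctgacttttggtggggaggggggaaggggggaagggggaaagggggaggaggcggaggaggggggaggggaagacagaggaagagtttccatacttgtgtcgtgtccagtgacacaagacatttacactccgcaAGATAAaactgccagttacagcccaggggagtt
Of the 10 genes named as lowest, 7 had a window in the RefSeq table and 3 held the motif, these same 3. A match of letters is a description of the window and shows no binding.

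The atrial list as a whole was lower, with 7 of 15 members at least 1.5-fold lower (4.8% of all measured genes), 0 higher (5.84% of all) and a median of -0.57. It counts Nppa and Bmp10 themselves and shares Myl4 and Myl7 with the thick filament list below. The counts of these lists are therefore not independent. Pam, an enzyme that processes peptide hormones and is abundant in atrial granules, had 2700.3 and 1821 CPM (1.48-fold lower). The atrial light chain Myl7 had 1380.2 and 727 CPM (1.90-fold lower). Kcnj3, a potassium channel subunit that slows the atrial beat under vagal tone, went the other way, with 199 and 295 CPM (1.49-fold higher, 1.39 to 1.58). Of the 10 ventricular genes, 2 were at least 1.5-fold lower (median -0.48), and these were the light chains Myl2, with 1991 and 1269.8 CPM, and Myl3, with 1435 and 810.4 CPM. Myl2 and Myl3 are also on the thick filament list. Both chamber lists lay below the median of all genes. The list of natriuretic and wall stress genes had 5 of 13 measured members lower and 0 higher (median -0.46). It counts Nppa and Nppb themselves and shares Myh7, Acta1 and Xirp2 with the sarcomere lists below. Ankrd1, a nuclear and sarcomeric protein of stretched muscle, had 1590.3 and 944 CPM (1.68-fold lower). Npr2, a receptor for C-type natriuretic peptide, had 32.3 and 34.3 CPM, and its counting interval included no difference.

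Contractile genes were lower together. In the thick filament list 8 of 12 members were at least 1.5-fold lower and all 12 were below 0, with a median of -0.66. Titin, Ttn, the giant spring of the sarcomere, had 14980 and 11232 CPM (1.33-fold lower), and Myh6, the main myosin heavy chain of the adult mouse heart, had 10159 and 7087 CPM (1.43-fold lower). Myh7b was the nearest to no difference, at 77.4 and 71.1 CPM. In the list of the thin filament and Z-disc 8 of 18 were lower at 1.5-fold and all 18 below 0 (median -0.57). Flnc, a muscle filamin that crosslinks actin at the Z-disc, was the lowest, with 298 and 112 CPM (2.67-fold lower, 2.47 to 2.90). Xirp1, an actin-binding protein of the intercalated disc, had 107 and 41.1 CPM (2.60-fold lower, 2.28 to 2.98). Troponin T, Tnnt2, had 4493 and 3002 CPM and tropomyosin, Tpm1, 3232 and 2358 CPM. Taken over both lists, sarcomere genes were 5.26% of the UMIs of the median isotype cell (quartiles 4.59 to 5.97) and 3.48% of the median PD1/PEM cell (2.90 to 4.13). Most cardiomyocyte markers belong to these lists, so that their lower sum is the same measurement.

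Genes of calcium cycling, which couples the action potential to contraction, followed with 4 of 16 lower at 1.5-fold and 0 higher (median -0.52). Ryr3, a minor ryanodine receptor of the heart, had 248 and 111 CPM (2.23-fold lower, 2.06 to 2.43). The main release channel Ryr2 had 3641 and 2596 CPM, and the calcium pump Atp2a2 3688 and 2565 CPM, 1.40-fold and 1.44-fold lower. Cacnb2, a calcium channel subunit, was above 0, with 484 and 578 CPM. Ion channels of repolarisation and conduction had 2 of 20 lower (median -0.14), against 4.8% of all measured genes.

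Ppargc1a encodes PGC-1alpha, the coactivator that drives transcription of mitochondrial and oxidative genes together with PPAR and ERR receptors. It had 1590.3 CPM in the isotype and 513 CPM in the PD1/PEM library, 3.102-fold lower (2.99 to 3.22). The gene lies on chromosome 5 (51454250 to 51567726, minus strand). Of the 14 genes of its list, which counts Ppargc1a itself, 6 were at least 1.5-fold lower and 0 higher (median -0.38). Pparg had 297 and 195 CPM (1.53-fold lower). Ppard was above 0, with 68.2 and 89.8 CPM (1.32-fold higher).

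Nuclear genes of the mitochondrion were lower in small, even steps. All 36 measured members of the complex I list were below 0 (median -0.42). Of these list members 4 passed 1.5-fold, among them Ndufa4 with 895 and 535 CPM. For complexes II to IV, 5 of 26 passed (median -0.48), with Cox6a2, a muscle form of a cytochrome oxidase subunit, at 884 and 587 CPM and Cox8a at 113 and 115 CPM. For complex V, the ATP synthase, 3 of 16 passed (median -0.39), with Atp5b at 1152 and 753 CPM. Together the 3 lists were 2.48% of the UMIs of the median isotype cell (quartiles 2.09 to 2.90) and 1.81% of the median PD1/PEM cell (1.53 to 2.12). The Krebs cycle list was lower by more, with 9 of 18 past 1.5-fold, all 18 below 0 and a median of -0.56. It also counts pyruvate dehydrogenase, Pdha1 and Pdhb, and its kinases Pdk2 and Pdk4. Citrate synthase, Cs, had 218 and 119 CPM (1.83-fold lower), Idh2 502 and 277 CPM (1.81-fold) and Ogdh 616 and 381 CPM (1.62-fold). Suclg2 was nearest to no difference, at 48.6 and 45.7 CPM.

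Most genes of fuel use were lower, with exceptions in both pathways. Of 27 measured genes of fatty acid uptake and oxidation 5 were lower at 1.5-fold and 0 higher (median -0.42). The shares of all measured genes were 4.8% and 5.84%. Plin5, a coat protein of lipid droplets, had 22.7 and 13.1 CPM and lipoprotein lipase, Lpl, 2185 and 1633 CPM. Fabp4, a fatty acid binding protein of capillary endothelium that is also on the endothelial marker list, had 1107 and 1534 CPM (1.39-fold higher). Of 22 genes of glucose entry and glycolysis 6 were lower and 1 higher (median -0.40). The enzymes that set fructose 2,6-bisphosphate, an activator of glycolysis, differed among themselves. Pfkfb2, the heart form, had 24.8 and 13.01 CPM (1.91-fold lower, 1.49 to 2.46). Pfkfb3, the inducible form, had 46.5 and 78.0 CPM (1.68-fold higher, 1.47 to 1.92). Pfkfb1 was level at 12.8 and 13.1 CPM. Gapdh was level at 433 CPM in both libraries. In the glycogen list 1 of 11 was lower at 1.5-fold, against 4.8% of all measured genes. It was Phka1, a regulatory subunit of muscle phosphorylase kinase, with 142 and 65.9 CPM (2.16-fold lower, 1.94 to 2.41).

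The lists of organelle upkeep had medians below 0. Mitochondrial DNA upkeep had 1 of 18 lower at 1.5-fold, near the 4.8% of all genes, and a median of -0.36, which was 0.27 in cells of 25 to 26% and 0.01 in cells under 1000 UMIs. Chaperones and proteases had 3 of 15 lower and a median of -0.37, and fusion and fission 2 of 11 and -0.44. Mfn2, a mitofusin, had 180.3 and 118 CPM (1.53-fold lower). Polg2, the accessory subunit of the mitochondrial DNA polymerase, was above 0, with 45.6 and 67.7 CPM (1.48-fold higher). Mitophagy and autophagy genes were near the median of all genes (1 of 17 lower, median -0.08). The mt- genes themselves cannot be compared as a sum, since the limit fixed their share. Among them mt-Atp8 was 0.428% of isotype and 0.324% of PD1/PEM mt- UMIs (1.32-fold lower), while mt-Co3 was 19.9% in both.

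**Figure D2:**
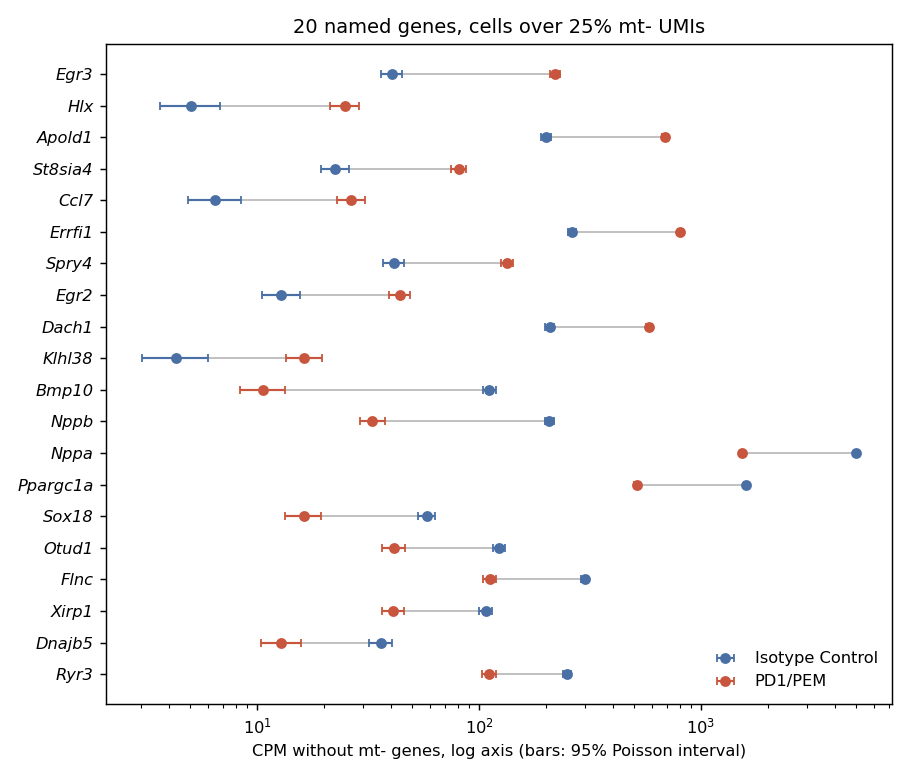
CPM without mt- genes (log axis) of the 20 named genes in cells over 25%, isotype in blue and PD1/PEM in red, each the sum of 1 library with its 95% Poisson interval. The upper 10 genes lie to the right in PD1/PEM, with Egr3 at 40.3 and 220 CPM, and the lower 10 to the left, with Bmp10 at 111 and 10.7 CPM.

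Among the 10 named genes higher in the PD1/PEM library, Egr3 and Egr2 are early response transcription factors, and Errfi1 and Spry4 are brakes on growth factor signalling. Immediate early genes are transcribed within minutes of a growth factor, a calcium signal or tissue handling, through kinases such as ERK, and their products include inhibitors that end the signal. Egr3, a zinc finger factor of this class, had 40.3 CPM for isotype and 220 CPM for PD1/PEM, 5.45-fold higher (4.84 to 6.15). Egr2 had 12.8 and 43.9 CPM (3.41-fold, 2.73 to 4.29), and Egr1 1178 and 2758 CPM (2.34-fold, 2.29 to 2.40). The list had 10 of 26 measured members at least 1.5-fold higher and 0 lower, with a median of 0.47. Fos, the usual reporter of the class, had 730.2 and 829.6 CPM (1.14-fold higher), and Ier5 had 131 and 106 CPM. Immediate early genes were 0.700% of the UMIs of the median isotype cell (quartiles 0.526 to 0.907) and 1.14% of the median PD1/PEM cell (0.925 to 1.37).

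Of 17 measured feedback inhibitors of growth factor and ERK signalling 7 were higher at 1.5-fold and 0 lower (median 0.54). Errfi1, which binds and blocks EGF receptors, had 262 and 807 CPM (3.08-fold, 2.93 to 3.24). Spry4, a Sprouty protein that dampens the path from receptor to ERK, had 41.2 and 134 CPM (3.25-fold, 2.87 to 3.69). Dusp1, a phosphatase that inactivates MAP kinases, had 385 and 833 CPM (2.16-fold, 2.07 to 2.26). Socs3, an inhibitor of cytokine receptors, was below 0, with 102 and 87.3 CPM.

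The promoters of Errfi1 and Btg2 are shown because both genes were higher and hold a full CRE, TGACGTCA, the palindrome bound by CREB factors, in capitals below. Btg2, an antiproliferative gene of the immediate early list chosen here for its motif after its value was seen, had 322 and 774 CPM. The windows, from RefSeq on GRCm38.p6, are chr4:150854820-150855069 on the plus strand for Errfi1, which has a second window in the table, and chr1:134079156-134079405 on the minus strand for Btg2.
Errfi1: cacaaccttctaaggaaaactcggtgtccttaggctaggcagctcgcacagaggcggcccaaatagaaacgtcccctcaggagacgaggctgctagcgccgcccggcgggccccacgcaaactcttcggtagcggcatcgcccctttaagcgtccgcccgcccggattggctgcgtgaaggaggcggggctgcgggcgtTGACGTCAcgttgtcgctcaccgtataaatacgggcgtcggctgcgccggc
Btg2: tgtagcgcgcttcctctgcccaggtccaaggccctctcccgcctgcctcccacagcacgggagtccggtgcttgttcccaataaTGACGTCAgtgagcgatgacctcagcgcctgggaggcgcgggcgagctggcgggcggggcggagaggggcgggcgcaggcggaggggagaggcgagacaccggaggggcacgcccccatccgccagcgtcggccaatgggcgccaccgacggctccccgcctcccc
The CRE is in 1.79% of all windows. Of 10 named higher genes 6 had a window and 1, Errfi1, held it. Of the 10 immediate early genes past 1.5-fold 7 had a window and 1, Btg2, held it. The EGR site GCGTGGGCG, in 0.612% of all windows, was in none of these genes' windows.

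Endothelial genes were prominent among the named genes, in both directions. Apold1, an early response gene of vessel lining, had 200 and 689 CPM (3.44-fold higher, 3.26 to 3.64). Hlx, a homeobox factor, had 5.04 and 24.9 CPM (4.94-fold, 3.51 to 7.09), and Dach1, a factor of coronary artery growth, 208 and 580.4 CPM (2.79-fold, 2.63 to 2.95). Sox18, a factor of vessel and lymphatic development, was 3.58-fold lower (2.92 to 4.42), with 58.0 and 16.2 CPM. The endothelial state list had 7 of 18 higher and 2 lower (median 0.19). The flow-responsive factor Klf2 had 378 and 690.3 CPM (1.83-fold) and Fli1, an ETS factor of endothelial and blood cells, 394 and 759 CPM (1.93-fold). In the VEGF and angiopoietin list 2 of 15 were higher and 1 lower (median 0.08), against 5.84% and 4.8% of all measured genes. The ligands differed in sign: Vegfa, made largely by muscle, had 203 and 116 CPM (1.75-fold lower), and Vegfc, the ligand of lymphatic vessels, 39.7 and 69.9 CPM (1.76-fold higher). The receptor Flt1 had 1039 and 1397 CPM and the coreceptor Nrp1 431 and 647 CPM. These values stand beside an endothelial marker sum that was 1.15-fold higher.

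The remaining named genes had other roles. St8sia4, which adds polysialic acid to cell surface proteins, had 22.4 and 80.8 CPM (3.60-fold higher, 3.05 to 4.27). Klhl38, a kelch protein of striated muscle, had 4.32 and 16.3 CPM (3.78-fold, 2.58 to 5.65). It was the only member of the list of FoxO, atrophy and insulin genes to pass 1.5-fold (1 of 18, median 0.03). Of all measured genes 5.84% were that much higher. Otud1, a deubiquitinase, had 123 and 41.2 CPM (2.99-fold lower, 2.62 to 3.41). Dnajb5, a cochaperone, had 36.0 and 12.9 CPM (2.80-fold lower, 2.21 to 3.57). Cytosolic heat shock genes split, with 1 of 18 higher, 1 lower and a median of -0.01. The ones past 1.5-fold were Dnajb1, with 35.3 and 74.0 CPM, and Cryab, a small heat shock protein abundant in muscle, with 542 and 301 CPM.

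Interferon, NF-kB and complement genes lay higher, while antigen presentation and interferon gamma genes lay near the median of all genes. The type I interferon list had 8 of 24 measured members higher at 1.5-fold and 0 lower (median 0.42), with Ifi27l2a at 53.4 and 108 CPM (2.02-fold, 1.80 to 2.27) and its signal transducer Stat2 level at 66.7 and 66.8 CPM. The list of NF-kB, cytokine and adhesion genes had 7 of 22 higher and 0 lower (median 0.42). The monocyte chemokine Ccl7 led it, with 6.48 and 26.4 CPM (4.08-fold, 3.00 to 5.62), and the stromal chemokine Cxcl12 had 209 and 341 CPM (1.63-fold). Complement had 4 of 16 higher (median 0.37), with C3 at 171 and 262 CPM. Antigen presentation had 0 of 18 past 1.5-fold in either direction (median -0.03). The class I light chain B2m was level at 636 and 635 CPM, and Cd74, the chaperone of class II, had 98.3 and 68.5 CPM. Interferon gamma effectors had 0 of 16 higher and 1 lower (median 0.12). Macrophage markers, which moved with these lists, were 1.30-fold higher in sum.

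The targets of the antibodies themselves were scarce. Cd274, which encodes PD-L1, had 131 isotype and 133 PD1/PEM UMIs, or 15.7 and 18.4 CPM, a ratio of 1.17 whose interval (0.912 to 1.501) included no difference. Pdcd1, which encodes PD-1, had 7 and 4 UMIs, or 0.840 and 0.553 CPM, near the level of 3 UMIs (0.360 and 0.415 CPM), and no difference was detectable at this depth. The checkpoint list had 4 of 13 measured members higher and 0 lower (median 0.28). Havcr2, the receptor TIM-3, was the highest at 2.28 and 5.81 CPM (2.55-fold, 1.45 to 4.64).

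Matrix genes and ribosomal proteins differed by less. Of 32 measured matrix genes 3 were higher and 1 lower (median 0.20), against 5.84% and 4.8% of all measured genes. Thbs1, which binds and activates TGF beta, had 160 and 303 CPM (1.90-fold). Ctgf, a matricellular target of YAP, had 288 and 187 CPM (1.54-fold lower). Of 40 cytosolic ribosomal protein genes 0 passed 1.5-fold, and the median was 0.21. The haemoglobin genes had the highest median of any list (0.92). Hbb-bs had 2390 and 4547 CPM (1.90-fold), and haemoglobin made up 0.554% of the UMIs of the median isotype cell and 1.02% of the median PD1/PEM cell. Hba-a1 and Hba-a2 are near-identical copies, so the division of reads between them is uncertain. The other lists had medians between -0.11 (antioxidant, 3 of 25 lower) and 0.25 (cell cycle, 4 of 12 measured higher).

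**Figure D3:**
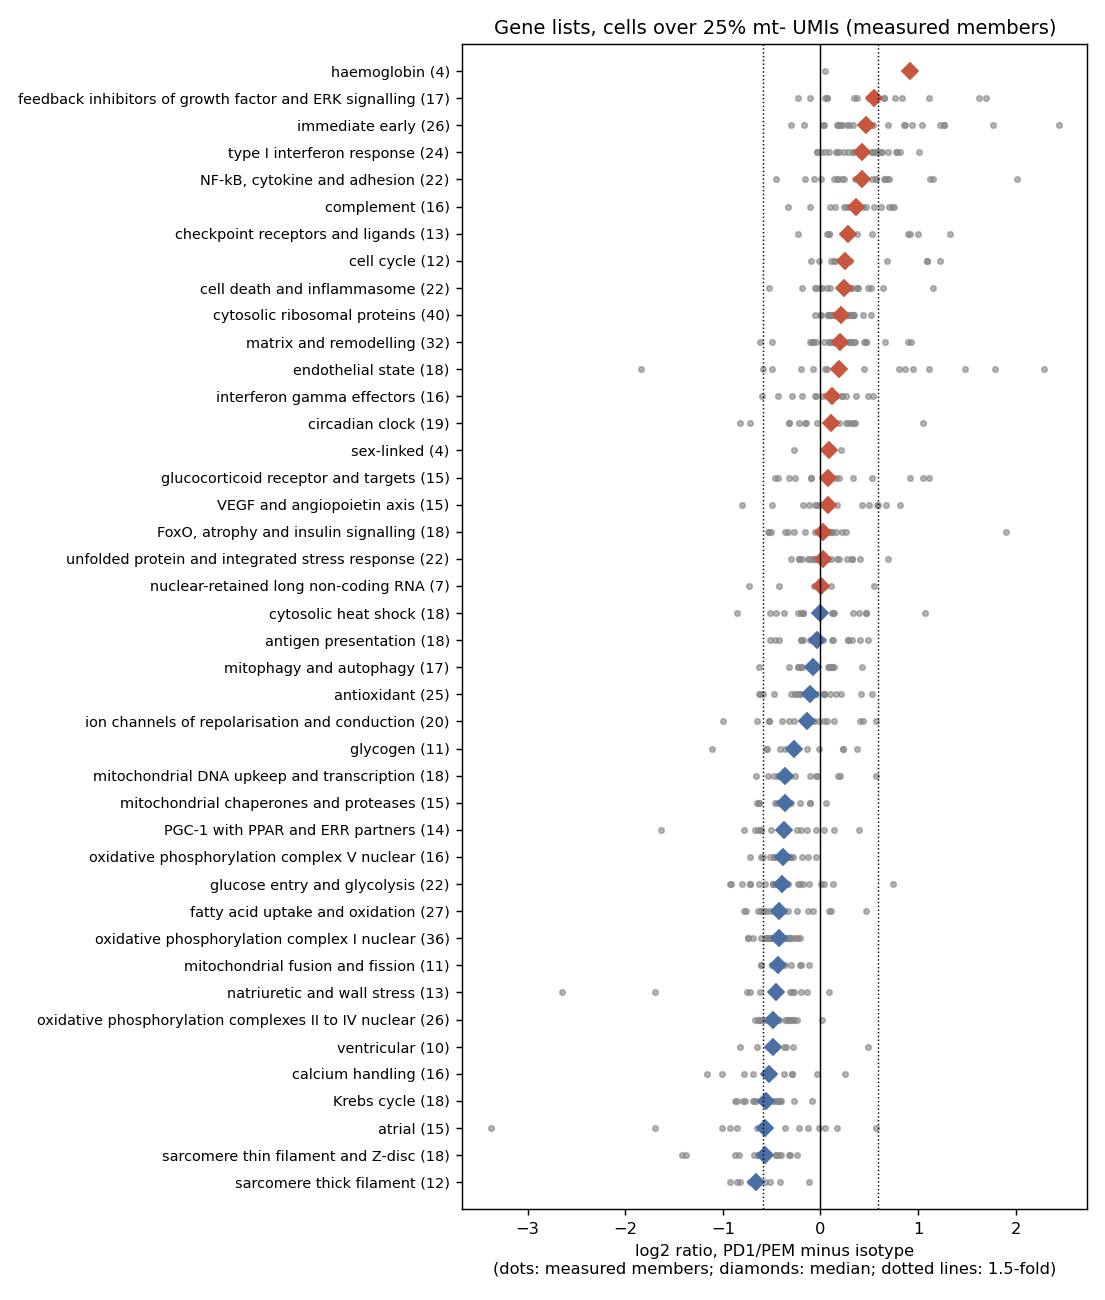
Log2 ratio of PD1/PEM over isotype in cells over 25% (horizontal axis) for the measured members of each gene list (grey dots) and their median (diamonds, red above and blue below 0), with dotted lines at 1.5-fold and the number of measured members in parentheses. Lists of heart muscle and of mitochondrial metabolism lie at the bottom, down to a median of -0.66 for the thick filament, and immediate early, feedback, interferon and haemoglobin lists at the top.

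Within the selected cells the direction of the named genes held across the mitochondrial share, and the size varied for some. All 20 named genes kept their sign in the bands of 25 to 26%, 26 to 27%, 27 to 28% and 28 to 30%. These genes were ranked on the sum of the same cells, so their signs in its parts were largely set by that choice. That limit also applies to the bands of depth below. The log2 ratio of Nppa stayed between -1.73 and -1.68 over the 4 bands and that of Errfi1 between 1.603 and 1.635. Hlx ranged from 1.502 to 2.903, Nppb from -3.17 to -2.13, Dnajb5 from -1.89 to -0.92 and Xirp1 from -1.65 to -0.87. Some list medians changed sign, such as that of the ion channels, 0.16 at 25 to 26% and -0.17 at 28 to 30%. Since the PD1/PEM cells were deeper, the same was done for cells under 1000, 1000 to 2000, 2000 to 4000 and from 4000 UMIs, and 19 of 20 kept their direction. The exception was Klhl38, with 6.34 CPM for isotype and 4.90 CPM for PD1/PEM in the cells under 1000 UMIs, from 6 UMIs in all. Nppa lay between -1.72 and -1.4997 over the depth bands. Ppargc1a came nearer to 0 with each step of depth, from -2.33 in the shallowest cells to -1.32 in the deepest. The same order was seen for Nppb, from -2.97 to -2.36, for Xirp1, from -1.79 to -0.89, and for Egr3, from 2.85 to 1.88.

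Nppa and the thick filament list had similar values on both sides of the limit of 25%, while some other genes and lists did not. Just inside it, at 25 to 26%, were 879 isotype and 577 PD1/PEM cells, with 4534 and 1414 CPM of Nppa and a thick filament median of -0.60. Just outside, at 24 to 25%, were 707 and 497 cells, with 4394 and 1436 CPM of Nppa and a median of -0.51. From inside to outside, the log2 ratio of Klhl38 went from 1.67 to 3.55, on 27 UMIs in each band. That of Hlx went from 1.89 to 1.05, on 22 and 20 UMIs, and that of Dnajb5 from -1.40 to -0.73. The median of mitochondrial DNA upkeep went from 0.27 to -0.35. In all cells up to 25%, Nppa was 3.07-fold lower in the PD1/PEM library, Bmp10 7.43-fold lower, Egr3 5.10-fold higher and Errfi1 2.79-fold higher. Those cells come from the same 2 captures, so they are no replicate of the comparison.

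**Figure D4:**
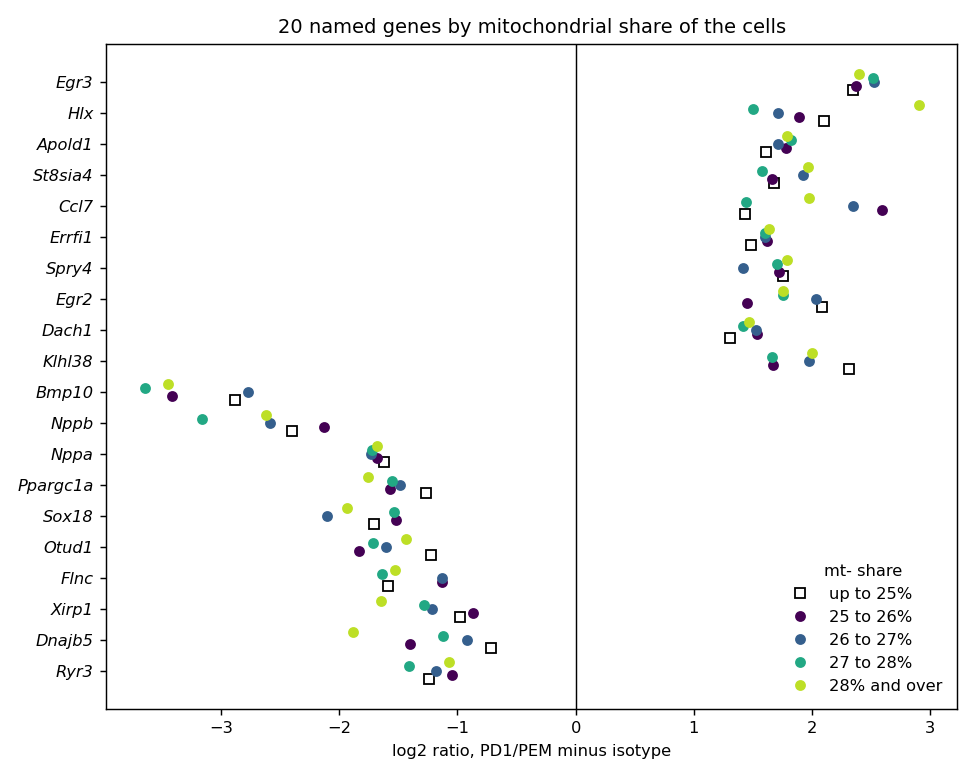
Log2 ratio of PD1/PEM over isotype of the 20 named genes, in 4 bands of the mitochondrial share of cells over 25% (filled circles, dark to light) and in cells up to 25% (open squares), all summed per library. Every gene stays on its side of 0 in every band, and Nppa stays between -1.73 and -1.68 in the 4 bands.

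Some ratios were not of the same size on both sides of the limit. Over 11232 genes with at least 50 UMIs in each set of cells, the PD1/PEM to isotype ratio was at least 1.5-fold higher in cells over 25% than in the others for 271 (2.41%) and 1.5-fold lower for 305 (2.72%). The 5 highest by this measure, taken by the lower bound of its interval, had few UMIs, and their ratio was below 1 in cells up to 25% and above 1 in cells over it. Cnp, a phosphodiesterase of myelinating glia and other cells, had 9.97 and 6.47 CPM up to 25% and 5.64 and 13.7 CPM over it. Gstcd had 13.96 and 6.20 CPM up to 25% against 8.04 and 10.8 CPM over it, a factor of 3.02 (1.62 to 5.69). Fbxo6, an F-box protein, had 12.96 and 4.85 CPM up to 25% against 11.9 and 13.3 CPM over it. Pet100, an assembly factor of complex IV, had 19.2 and 9.98 CPM up to 25% against 15.5 and 18.1 CPM over it, and Ppp1r18os 12.2 and 6.47 against 7.80 and 10.7 CPM. Among the genes named above, Ppargc1a was further down in cells over 25%, where its ratio was 0.777 times that in the others (0.738 to 0.819). For Dnajb5 this factor was 0.589 (0.409 to 0.849). Kcnj3 had 238 and 564 CPM in cells up to 25%, against 199 and 295 CPM over it, so that its excess in PD1/PEM was 1.595-fold smaller (1.44 to 1.77) in the selected cells. Kcnj3 is 1 of the 5 lowest by the same measure. An excess was also smaller over the limit for Angpt1, the ligand of the endothelial receptor Tie2, with 65.6 and 174 CPM up to 25% against 70.2 and 99.3 CPM over it. Rxfp1, the relaxin receptor, had 17.4 and 49.4 CPM up to 25% and was level over it, at 19.3 and 20.5 CPM. Retreg1, which recruits endoplasmic reticulum to autophagosomes, had 173 and 272 CPM up to 25% and 175 and 161 CPM over it. St6galnac4, a sialyltransferase, was the only one of these lowest 5 to be below 0 by more than 1.5-fold in the selected cells, with 32.1 and 17.7 CPM.

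Cells over 25% were also compared with the other cells of their own library. They held more transcripts of several lists, among them the nuclear-encoded respiratory chain. They held less of those of several others, among them calcium handling and ion channels. This comparison was made once in each library, on 12205 genes. At 1.5-fold, 2.65% of genes were higher and 2.26% lower in the isotype library, and 3.31% and 3.95% in the PD1/PEM library. Past that fold in both libraries were 40 higher (0.328%) and 146 lower (1.2%). With each cell given equal weight the lower genes were 51 and the higher 34, and at a limit of 27% they were 74 and 15.

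The highest by the weaker of the 2 intervals were Ndufa2, a complex I subunit, with 321 CPM over against 231 up to 25% in the isotype (1.39-fold) and 269.5 against 193 in the PD1/PEM library (1.40-fold). Mb, which encodes myoglobin, was 1.29-fold and 1.30-fold higher, at 3508 against 2724 CPM and 2334 against 1794 CPM. The complex III subunit Uqcrq was 1.33-fold and 1.36-fold higher, Ifi27, an interferon-induced gene, 1.58-fold and 1.61-fold, and the RNA-binding Hnrnpa0 1.496-fold and 1.47-fold. The medians of the complex I, II to IV and V lists were 0.31, 0.33 and 0.31 in the isotype and 0.31, 0.30 and 0.32 in the PD1/PEM library. The medians of all genes were 0.07 and 0.08. The rise was not particular to the respiratory chain. Medians were 0.33 and 0.34 for haemoglobin, 0.30 and 0.41 for antigen presentation and 0.27 and 0.32 for cytosolic ribosomal proteins.

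The lowest was Rbm20, the splicing factor of titin, with 779 CPM over against 1379 up to 25% in the isotype (1.77-fold lower, 1.71 to 1.84) and 629 against 1289 in the PD1/PEM library (2.05-fold, 1.97 to 2.13). Fgf12 and Fgf13, intracellular partners of sodium channels, were 1.76-fold and 1.68-fold lower in the isotype and 2.34-fold and 2.03-fold lower in the PD1/PEM library. The muscarinic receptor Chrm2, which carries vagal input, was 1.71-fold and 2.14-fold lower, and the pore of the L-type calcium channel, Cacna1c, 1.65-fold and 1.86-fold. The ion channel list had medians of -0.16 and -0.59, and the calcium handling list -0.22 and -0.38. The fall was not particular to these lists. Medians were -0.13 and -0.35 for FoxO, atrophy and insulin genes, -0.13 and -0.17 for glycogen and -0.12 and -0.19 for the list of Ppargc1a. Ppargc1a and Klhl38 were among the 146 genes lower in both libraries, although PD1/PEM differed from isotype in opposite directions for them.

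Gene length went along with this contrast. In 5 bins of genomic span, from a median of 5.51 kb to one of 166 kb, the median log2 ratio of cells over against up to 25% went from 0.21 in the shortest bin to -0.03 in the longest in the isotype library, and from 0.23 to -0.04 in the PD1/PEM library. The same bins had medians of -0.05 to 0.08 in the comparison of the 2 libraries, in the opposite order. Among the mt- genes mt-Nd6, the only protein-coding gene on the light strand, was 0.347% of mt- UMIs over and 0.598% up to 25% in the isotype library, and 0.327% and 0.665% in the PD1/PEM library. The part of nuclear, unspliced or light-strand RNA in these values was not tested.

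**Figure D5:**
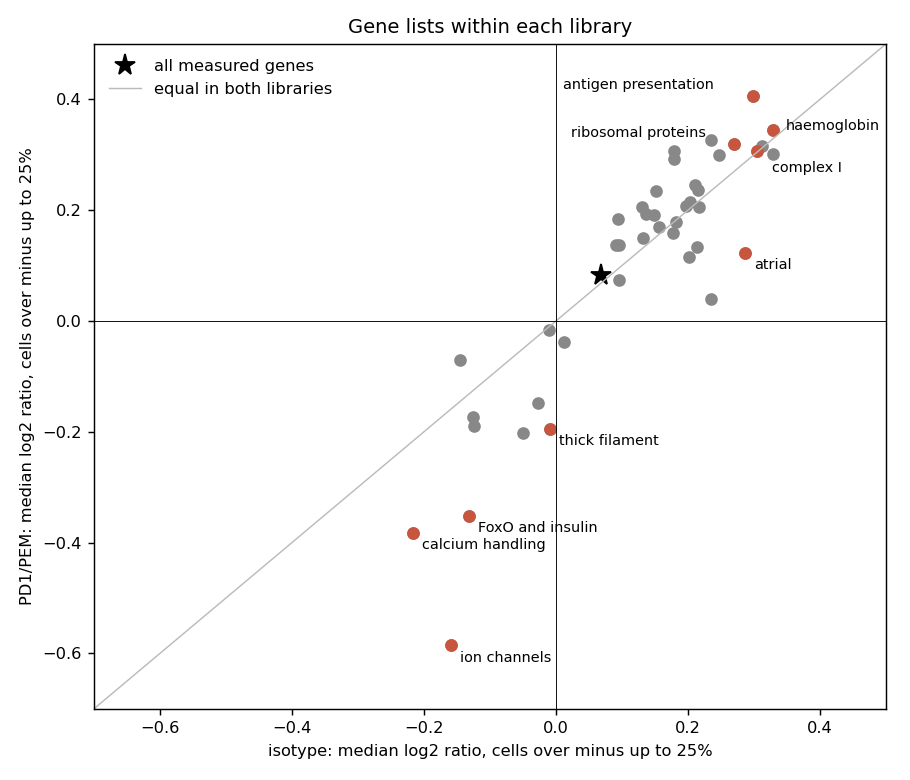
Median log2 ratio of cells over against up to 25% for each gene list within the isotype (horizontal axis) and the PD1/PEM library (vertical axis), with all measured genes as a star and named lists in red. Complex I lies at 0.31 in both libraries, and ion channels at -0.16 and -0.59.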

How the data were processed

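Hearts were captured with 10x Genomics 3′ chemistry, per the labels' protocols. Cell Ranger, Seurat and mm10 are named, without versions, per the submitters' processing notes. The authors deposited UMI counts as 1 matrix of genes by cells per library. What filter gave the ceiling of 30% on mitochondrial share is not given in the sources used here. Of 30415 gene symbols 29240 were found in GENCODE M21, which gave positions and spans on GRCm38.

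Cells with over 25% of UMIs from symbols starting with mt- were summed per library without the 13 mt- genes and scaled to CPM. Doublets were kept. As an alternative, the cells with the highest Scanpy doublet scores, 0.8% per 1000 cells of a library (536 isotype and 253 PD1/PEM cells over 25%), were left out. Intervals are exact at 95% (Poisson for levels, conditional binomial for ratios, Clopper-Pearson for shares). Genes needed 50 UMIs over both libraries, or in each library or set of cells for the comparisons across the limit of 25%. Log2 ratios use 0.5 UMIs. A call is a fold alone. With 1 library a side, nothing was tested.

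Named genes are the 10 highest and 10 lowest past 1.5-fold, ranked by whichever end of the interval lay closer to a ratio of 1, without sex-linked genes, haemoglobin genes and unnamed gene models. Further ones are the highest and lowest member of each list with 2 of its most abundant members, Cd274, Pdcd1, and 5 genes per direction for each comparison across the limit. The members, the 42 gene lists and the 14 marker lists were chosen with earlier results of these data known. The value of 1 named list member is left out of the text. The matrix list holds older and newer symbols of 2 genes. Shares per single cell and the count of barcodes with several marker sets were added after the sums had been seen. The ratio step was tested on simulated counts. Python 3.11.15, NumPy 2.4.6, SciPy 1.17.1, pandas 2.3.3 and Scanpy 1.11.5 were used.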

Additional observations from a re-analysis of the deposited data

Results flagged for a closer look

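Cnp, which encodes a phosphodiesterase of myelinating glia that is also found in other cells, moved in opposite directions on the 2 sides of the limit of 25%. In cells over it the log2 ratio of PD1/PEM over isotype was 1.27, at 5.64 CPM in the isotype and 13.7 CPM in the PD1/PEM library (146 UMIs in all). In cells up to it the log2 ratio was -0.61, at 9.97 and 6.47 CPM (64 UMIs). The ratio of the ratios was 3.74 (1.94 to 7.25, counting error only). The difference was not tested, since each side holds 1 library per group. Cnp had the highest lower bound of this ratio among the ranked genes, so its value is partly set by that choice. Sex-linked genes, haemoglobin genes and unnamed gene models were not ranked.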

How the results depend on the processing

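The comparison of the libraries was repeated under 13 alternatives, 1 of them (a total without haemoglobin and sarcomere genes) chosen after seeing the data. All 259 log2 ratios of named genes kept their sign, and 7 left the main counting interval. The named genes were chosen by their main ratio, so the kept signs were largely set by that choice. Of 546 list medians 537 moved by under 0.1, 9 by more, up to 0.16. Of all these medians 13 changed sign, in 5 lists with main medians at most 0.032 from 0 (antigen presentation, FoxO, heat shock, nuclear-retained RNA and unfolded protein response). Other scalings shifted log2 ratios by under 0.02. Counts of genes followed the UMIs asked of a gene. At least 2-fold higher and lower were 133 and 72 genes, against 515 and 536 at 10 UMIs and 54 and 31 at 200 UMIs. Past 1.5-fold in both libraries in cells over 25% were 40 higher and 146 lower, against 15 and 74 at a limit of 27% and 2 and 97 at 200 UMIs. With each cell given equal weight 51 were lower and 34 higher. The ratio between libraries differed 1.5-fold across the limit for 576 genes, against 51 at 200 UMIs. Thinning to 1000 UMIs left out 3065 isotype and 1098 PD1/PEM cells. The causes were not tested. No paired analysis was possible because each group is 1 library.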

Other observations

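Genes of the Y chromosome were read in both pools at like levels, Ddx3y at 163 and 176 CPM and Uty at 120 and 138 CPM. Xist, an RNA of the X chromosome, was nearly absent, with 2 isotype and 1 PD1/PEM UMIs in cells over 25%. Malat1, a nuclear-retained RNA that often stands for nuclear content, was nearly level, at 24394 CPM in the isotype and 23309.8 CPM in the PD1/PEM library. Clock genes were mostly near the median of all genes, apart from Per1, with 102 and 211 CPM (2.07-fold higher, 1.90 to 2.25), and Ciart, with 18.2 and 10.2 CPM (1.78-fold lower, 1.34 to 2.39). Arntl, which encodes the clock activator BMAL1 and was chosen after its value was seen, had 11.9 and 7.19 CPM (1.65-fold lower, 1.17 to 2.36). These were the only ones of 19 clock genes past 1.5-fold, 1 higher and 2 lower.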
